A study of Vitis vinifera with 27 samples.

Results

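VvFLC (VITVI01G01673) and VvSOC1 (VITVI15G00774, also known as VvMADS8) are 2 of the 35134 genes counted by RNA-Seq in latent buds of grapevine (Vitis vinifera). They were taken from the count table by the identifiers that the study gives for them. The reads of each gene were expressed relative to all reads of the library after TMM normalization (CPM), and both genes were among the 22999 genes that passed the filter on low counts. Buds of cv. Merlot, a red wine cultivar, were collected in a vineyard from vines grafted onto the rootstock Kober 5BB, with no experimental treatment. The vines were under standard management, and their lateral shoots were pruned repeatedly through the season so that the main shoot stayed dominant. There were 9 groups, the buds of node 2, node 5 and node 10 of the shoot at each of BBCH63 (anthesis), BBCH77 (cluster closure) and BBCH90 (harvest), and each of the 3 biological replicates consisted of pooled buds from 1 node position. Node 2 was basal, node 5 intermediate and node 10 apical. Each stage was sampled in 1 session, so that the stage and the sampling session cannot be told apart.

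Both genes encode MADS-box transcription factors, a family that controls the timing of flowering and the identity of floral organs in plants. In Arabidopsis, FLC (FLOWERING LOCUS C) is a repressor of flowering that binds to and silences FT and SOC1, and its own expression is shut down by prolonged cold. SOC1 (SUPPRESSOR OF OVEREXPRESSION OF CONSTANS1) is a promoter of flowering that collects the signals of day length, cold, age and gibberellins in the shoot apex and passes them on to LEAFY. In grapevine, the inflorescence primordia of the following season are laid down inside the latent bud while the present shoot is growing, so that these genes are read in the bud months before the flowers open. In the RefSeq annotation of the ASM3070453v1 assembly, matched by symbol alone, FLC is on chromosome 1 next to MADS4, and MADS8 is on chromosome 15.

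The 27 libraries held from 34531620 to 53307172 counts, with a median of 41275182. The study left replicate 3 of node 10 out of its differential expression at each stage, and the tests here used the same 24 libraries, 8 for each stage. Of the 3 libraries left out, the one labelled BBCH90 node 10 replicate 3 held the same count as BBCH63 node 2 replicate 2 at all 35134 genes. The shared counts held 305 reads of another flowering gene, VvTFL1A. The other 2 libraries of BBCH63 node 2 held 186 and 410, and the libraries of BBCH90 used in the tests held 2 to 10. The study kept BBCH63 node 2 replicate 2, and it stayed in the tests here. Its values of VvFLC and VvSOC1 lay between those of the other 2 libraries of its group. Without this library, the log2 fold change of VvFLC at node 2 was -0.64 from BBCH63 to BBCH77 (edgeR adjusted p = 0.01265) and -1.09 from BBCH63 to BBCH90 (edgeR adjusted p = 1.478e-05). VvSOC1 lost 4 calls without it, those of node 5 and node 10 vs node 2 at BBCH63 (edgeR adjusted p = 0.06056 and 0.08048), of BBCH90 vs BBCH63 at node 2 (0.05763) and of BBCH77 vs BBCH63 at node 10 (0.05414). Contrasts with node 10 therefore rest on 2 libraries of that node. The tissue is a mixture of cells, so that fewer cells of a type and less RNA per cell cannot be told apart in any of the values that follow.

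VvFLC was highest at BBCH63 and lower at each later stage at every node, whereas VvSOC1 had a smaller decline along the season and a lower level at node 2 than at nodes 5 and 10 at BBCH63. From BBCH63 to BBCH90 the level of VvFLC fell to 0.468 of its starting value at node 2, 0.429 at node 5 and 0.387 at node 10. Over the same interval VvSOC1 fell to 0.778, 0.618 and 0.59 of its starting value. The lengths of the transcripts were not used here, so the levels of these genes are compared between libraries and not with each other.

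At BBCH63, VvFLC had 117, 123 and 125 CPM in the 3 libraries of node 2, a mean of 122 ± 4.14 (SD, n = 3). At node 5 it had 113, 178 and 162 CPM, a mean of 151 ± 34.1 (SD, n = 3). At node 10 the libraries held 157 and 140.4 CPM, a mean of 148 ± 11.5 (SD, n = 2). Replicate 1 of node 5 was the lowest library of this stage, and it alone made the range of node 5 overlap with those of the other nodes.

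At BBCH77, the libraries of node 2 had 76.7, 85.7 and 71.9 CPM of VvFLC, a mean of 78.1 ± 7.01 (SD, n = 3). Those of node 5 had 74.2, 76.8 and 78.1 CPM, a mean of 76.4 ± 1.95 (SD, n = 3). The 2 libraries of node 10 had 73.0 and 65.5 CPM, a mean of 69.2 ± 5.30. Every library of this stage was below every library of BBCH63, and the ranges of node 2 overlapped with those of both other nodes.

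At BBCH90, VvFLC was at 50.2, 54.8 and 66.2 CPM at node 2, a mean of 57.0 ± 8.25 (SD, n = 3). Node 5 had 64.4, 58.3 and 71.6 CPM, a mean of 64.7 ± 6.68 (SD, n = 3). Node 10 had 54.3 and 60.7 CPM, a mean of 57.5 ± 4.52 (SD, n = 2). The nodes overlapped at this stage, and the highest library of BBCH90 exceeded the lowest of BBCH77, but not when libraries of the same node were compared.

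VvSOC1 at BBCH63 had 63.5, 73.2 and 82.6 CPM in the libraries of node 2, a mean of 73.1 ± 9.60 (SD, n = 3). At node 5 the values were 84.7, 117 and 113 CPM, a mean of 105 ± 17.4 (SD, n = 3). At node 10 they were 113 and 98.0 CPM, a mean of 106 ± 10.7 (SD, n = 2). All libraries of node 2 were below all those of nodes 5 and 10, and replicate 1 of node 5 was again the lowest of its group.

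At BBCH77, VvSOC1 was at 61.3, 61.8 and 69.1 CPM in node 2, a mean of 64.1 ± 4.38 (SD, n = 3). In node 5 it was at 89.0, 69.6 and 83.7 CPM, a mean of 80.8 ± 10.0 (SD, n = 3). In node 10 it was at 70.0 and 78.5 CPM, a mean of 74.3 ± 6.04 (SD, n = 2). Node 2 again stayed below the other nodes, but its highest library came within less than 1 CPM of the lowest library of either.

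At BBCH90, node 2 had 47.5, 59.8 and 63.2 CPM of VvSOC1, a mean of 56.8 ± 8.25 (SD, n = 3). Node 5 had 59.2, 72.7 and 61.9 CPM, a mean of 64.6 ± 7.18 (SD, n = 3). Node 10 had 63.7 and 60.8 CPM, a mean of 62.3 ± 2.03 (SD, n = 2). The 3 nodes overlapped, and replicate 1 of node 2 had the lowest level of both genes among the 24 libraries.

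**Figure D1:**
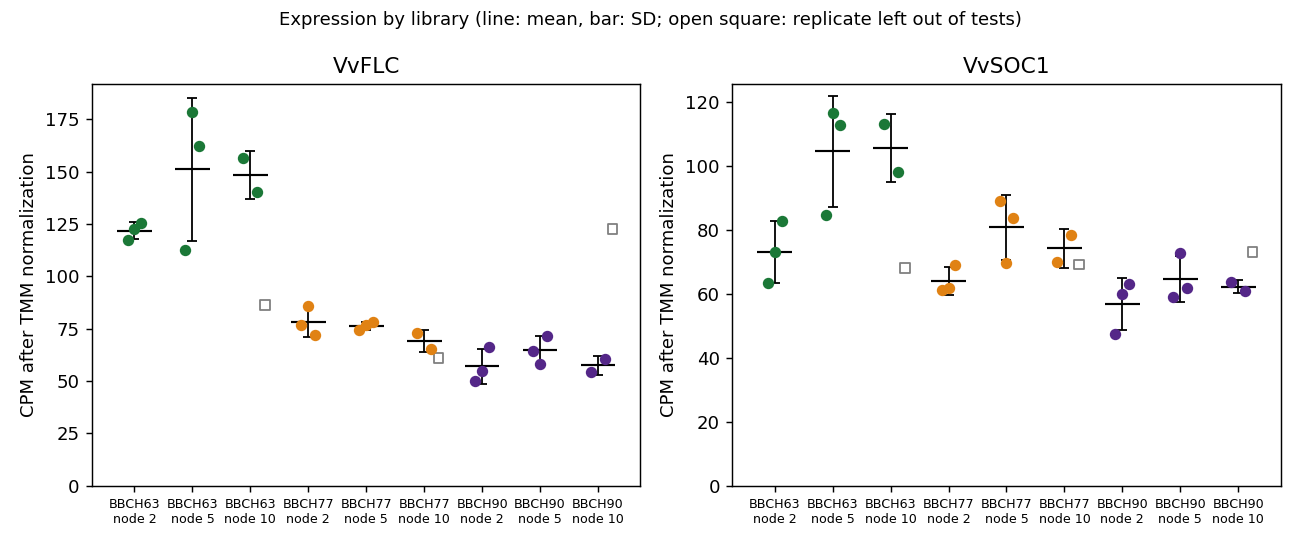
CPM after TMM normalization of VvFLC (left) and VvSOC1 (right) in each library, by stage and node; horizontal lines are group means, bars are SD (n = 3, for node 10 n = 2) and open squares are the libraries left out of the tests. Of the 24 libraries used in the tests, those of BBCH63 lie above all others for VvFLC, while for VvSOC1 node 2 at BBCH63 (63.5 to 82.6 CPM) lies within the range of BBCH77.

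Ordered by their means, the groups of VvFLC followed the stages without exception, from BBCH63 node 5 down to BBCH90 node 2. The step from the lowest group of BBCH63 to the highest of BBCH77 was the widest, with 43.7 CPM between the means of node 2 at these stages and no overlap of libraries. From BBCH77 node 10 downwards, each group overlapped with the next one. The order of VvSOC1 crossed the stages, since BBCH63 node 2 came after nodes 5 and 10 of BBCH77, and BBCH90 node 5 came before BBCH77 node 2. Every neighbouring pair of groups in the order of VvSOC1 overlapped. Of the variance of log2 CPM over the 24 libraries, the stage took 89.9% for VvFLC and 53.3% for VvSOC1, against a median of 65.5% over all genes tested. The 9 groups together took 93.5% and 81.7%, against a median of 81.9%.

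The comparison of stages asks how expression moved along the season in buds of a given node. The study proposes floral induction for BBCH63, transition and initiation for BBCH77, and the time just before dormancy for BBCH90. It places the buds of node 2 at transition or initiation already at BBCH63. A gene is said to have changed where the edgeR quasi-likelihood test gave an adjusted p under 0.05, and is called a DEG where the change was also at least 2-fold. From BBCH63 to BBCH77, VvFLC fell at all 3 nodes. The log2 fold change was -0.64 ± 0.138 (SE) at node 2 (edgeR adjusted p = 0.00318), where 9.96% of the genes tested fell. At node 5 it was -0.98 ± 0.138 (SE, edgeR adjusted p = 0.000113), which is just short of 2-fold, and 10.9% of the genes fell. At node 10 it was -1.10 ± 0.17 (SE, edgeR adjusted p = 0.000429), and VvFLC was a DEG there together with the 3.28% of genes that fell by at least 2-fold. In none of these contrasts did the libraries of the stages overlap. Without replicate 1 of node 5 at BBCH63, the change at node 5 became -1.15 and passed the 2-fold limit (edgeR adjusted p = 1.988e-05).

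From BBCH77 to BBCH90, VvFLC fell at node 2, with a log2 fold change of -0.45 ± 0.138 (SE, edgeR adjusted p = 0.00787). Of all genes tested, 34.4% fell at node 2 in this interval, so that a decline of this kind was common. At node 5 the log2 fold change was -0.24 ± 0.137 (SE, edgeR adjusted p = 0.14), and at node 10 it was -0.27 ± 0.168 (SE, edgeR adjusted p = 0.183). Both missed the threshold, with 95% intervals of -0.53 to 0.05 and -0.62 to 0.09, in contrasts in which 32.2% and 30.8% of the genes fell. Over the whole interval from BBCH63 to BBCH90, VvFLC was a DEG at every node. It fell by 1.10 ± 0.139 (SE) on the log2 scale at node 2 (edgeR adjusted p = 2.05e-06), by 1.22 ± 0.139 at node 5 (edgeR adjusted p = 5.63e-07) and by 1.37 ± 0.171 at node 10 (edgeR adjusted p = 2.86e-06). DEGs that fell made up 21.6%, 20.8% and 20.2% of the genes tested in these contrasts.

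VvSOC1 was in no contrast a DEG. From BBCH63 to BBCH77 it fell at node 10, by 0.51 ± 0.172 (SE) on the log2 scale (edgeR adjusted p = 0.0458), as did 8.97% of the genes tested. At node 2 the log2 fold change was -0.19 ± 0.14 (SE, edgeR adjusted p = 0.361), and at node 5 it was -0.37 ± 0.14 (SE, edgeR adjusted p = 0.0635). From BBCH77 to BBCH90 the log2 fold changes at nodes 2, 5 and 10 were -0.17, -0.32 and -0.25, and the edgeR adjusted p values were 0.288, 0.0533 and 0.214. No single step at node 2 or node 5 therefore passed the threshold. Across both steps together VvSOC1 fell at every node. The log2 fold change from BBCH63 to BBCH90 was -0.36 ± 0.14 (SE) at node 2 (edgeR adjusted p = 0.0308), -0.70 ± 0.141 at node 5 (edgeR adjusted p = 0.000311) and -0.76 ± 0.172 at node 10 (edgeR adjusted p = 0.00109). At an adjusted p under 0.05, 32.4%, 30.7% and 28.3% of the genes tested fell in these contrasts.

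The calls of VvSOC1 at node 2 and for the first step at node 10 were close to the threshold and depended on single libraries. The fall at node 2 from BBCH63 to BBCH90 was lost without BBCH63 node 2 replicate 2 or replicate 3 or without BBCH90 node 2 replicate 1, with edgeR adjusted p values from 0.05763 to 0.1518 and log2 fold changes from -0.36 to -0.25. The fall at node 10 from BBCH63 to BBCH77 was lost without any 1 of 11 libraries, with edgeR adjusted p values from 0.05159 to 0.2575. These 11 were the 4 libraries of the contrast and libraries of other groups. Of the first 2 stages, the latter were BBCH63 node 2 replicate 2, BBCH77 node 2 replicate 2 and BBCH77 node 5 replicate 3. Of BBCH90 they were node 2 replicate 2, node 5 replicate 3 and both libraries of node 10. Why libraries outside the contrast moved the call was not tested. In the other direction, the step from BBCH63 to BBCH77 at node 5 passed the threshold without BBCH63 node 5 replicate 1 (log2 fold change -0.50, edgeR adjusted p = 0.01828) or without BBCH90 node 2 replicate 1 (edgeR adjusted p = 0.04882). The step from BBCH77 to BBCH90 at node 5 passed it without any 1 of 6 libraries, with edgeR adjusted p values from 0.02299 to 0.04832. They were BBCH63 node 2 replicate 1, BBCH63 node 5 replicate 1, BBCH77 node 2 replicate 3, BBCH77 node 5 replicate 2, BBCH90 node 2 replicate 1 and BBCH90 node 5 replicate 2. The falls of VvSOC1 from BBCH63 to BBCH90 at nodes 5 and 10 kept an edgeR adjusted p of at most 0.01593 whichever library was left out.

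The comparison of nodes within a stage addresses the position of the bud on the shoot, along which the study measured different fertility. The study regards the basal buds as more advanced in development on the same date. The position of a bud and its state of development therefore cannot be told apart in these contrasts. VvSOC1 was higher at BBCH63 in both distal positions than at node 2. The log2 fold change was 0.52 ± 0.14 (SE) for node 5 vs node 2 (edgeR adjusted p = 0.0257), and 4.97% of the genes tested were higher in this contrast. It was 0.53 ± 0.155 (SE) for node 10 vs node 2 (edgeR adjusted p = 0.0384), where 4.75% of the genes were higher. In linear terms VvSOC1 was 1.43-fold and 1.44-fold higher, with no overlap of libraries, and between node 10 and node 5 the log2 difference was 0.01 ± 0.156 (SE). The same differences at BBCH77 were 0.33 ± 0.14 (SE) for node 5 vs node 2 (edgeR adjusted p = 0.12) and 0.21 ± 0.156 for node 10 vs node 2 (edgeR adjusted p = 0.441), where 5.07% and 0.835% of the genes were higher. At BBCH90 they were 0.18 ± 0.14 (SE, edgeR adjusted p = 0.834) and 0.13 ± 0.156 (SE, edgeR adjusted p = 0.855). The sign was thus the same at each stage, and the threshold was passed at BBCH63.

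The node difference of VvSOC1 at BBCH63 was close to the threshold as well. For node 5 vs node 2 it was lost without BBCH63 node 2 replicate 1 or replicate 2 or without BBCH63 node 5 replicate 2 or replicate 3, with log2 fold changes from 0.43 to 0.51 and edgeR adjusted p values from 0.06056 to 0.141. For node 10 vs node 2 it was lost without BBCH63 node 2 replicate 1 or replicate 2 or either library of node 10 at BBCH63 or BBCH90, with log2 fold changes from 0.42 to 0.63 and edgeR adjusted p values from 0.05026 to 0.2841. With replicate 3 of node 10 restored at BBCH63 and BBCH77 and the identical column still absent, both calls were lost, with log2 fold changes of 0.52 for node 5 (edgeR adjusted p = 0.0932) and 0.35 for node 10 (edgeR adjusted p = 0.3093). Both were also lost where only the 2 groups compared were fitted (edgeR adjusted p = 0.06369 and 0.05033).

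VvFLC did not differ between nodes past the threshold at any stage. Its largest node difference in the 24 libraries was at BBCH63, where node 5 exceeded node 2 by 0.31 ± 0.137 (SE) on the log2 scale (edgeR adjusted p = 0.148) and node 10 exceeded node 2 by 0.29 ± 0.152 (edgeR adjusted p = 0.245). Without BBCH63 node 5 replicate 1, the first of these rose to 0.47 with an edgeR adjusted p of 0.02365. At BBCH77 the differences from node 2 were -0.03 ± 0.137 for node 5 and -0.17 ± 0.154 for node 10, and at BBCH90 they were 0.18 ± 0.138 and 0.01 ± 0.154 (SE). At BBCH90 no gene was a DEG in any contrast of nodes in edgeR over the 24 libraries, where 1812 to 2185 genes had an unadjusted p under 0.05 and DESeq2 gave from 131 to 179 DEGs. With the replicate number as a block there were 10 DEGs for node 5 vs node 2 and 1 for node 10 vs node 2, and with 1 library left out there were up to 66 for node 5 vs node 2, 6 for node 10 vs node 2 and 101 for node 10 vs node 5.

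**Figure D2:**
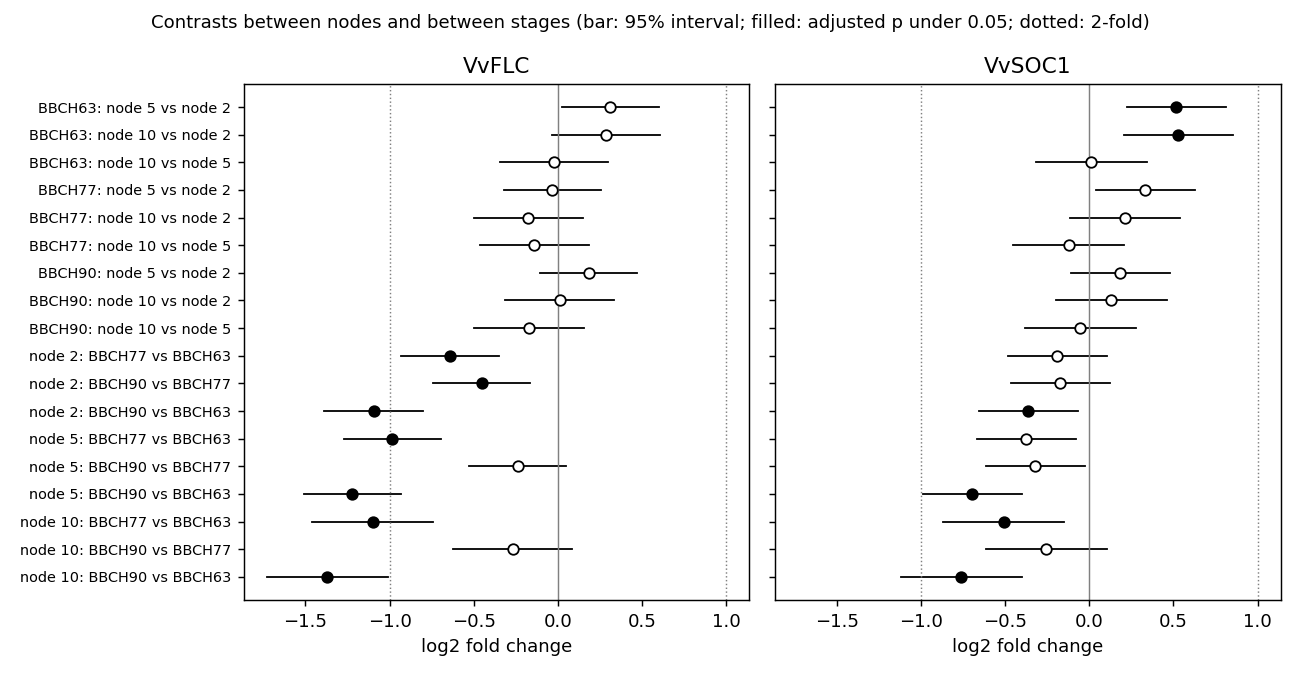
Log2 fold changes of VvFLC (left) and VvSOC1 (right) in the 9 contrasts of nodes within a stage and the 9 contrasts of stages within a node, with 95% intervals; filled points have an edgeR adjusted p under 0.05 and dotted lines mark a 2-fold change. The stage contrasts of VvFLC extend to -1.37, whereas those of VvSOC1 extend to -0.76 and its node contrasts at BBCH63 are filled at 0.52 and 0.53.

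Whether the node difference itself changed along the season was tested as an interaction. The difference of VvSOC1 between node 5 and node 2 had an interaction of -0.18 ± 0.198 (SE, log2 scale) at BBCH77 against BBCH63 (edgeR adjusted p = 0.8) and of -0.33 ± 0.198 at BBCH90 (edgeR adjusted p = 0.477). For node 10 the interactions of VvSOC1 were -0.32 ± 0.221 at BBCH77 and -0.40 ± 0.222 at BBCH90 (SE, edgeR adjusted p = 0.608 and 0.473). For VvFLC they ranged from -0.46 to -0.13 over the 4 tests, and the one of node 10 at BBCH77 had an unadjusted p of 0.048 in edgeR and an adjusted p of 0.402. None passed the threshold for either gene, and few of the genes tested did, 0.013% (node 5) and 0.0174% (node 10) at BBCH77 and 0.644% and 0.252% at BBCH90. The decline of VvFLC was therefore not shown to differ between nodes, nor was the node difference of VvSOC1 shown to be particular to BBCH63.

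The ratio of the counts of VvSOC1 to those of VvFLC within a library does not depend on the scaling of libraries, and it was used to ask whether both genes moved by the same factor. At BBCH63 it was 0.599 ± 0.0591 (SD, n = 3) at node 2, 0.7 ± 0.0487 (n = 3) at node 5 and 0.71 ± 0.017 (n = 2) at node 10. At BBCH77 it was 0.827 ± 0.122, 1.06 ± 0.147 and 1.08 ± 0.17 at the same nodes. At BBCH90 it was 0.997 ± 0.0806, 1.01 ± 0.209 and 1.09 ± 0.12. The mean ratio was thus lowest at BBCH63 at every node, and between the later stages the means of nodes 5 and 10 lay closer together than those of node 2.

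Over the 8 libraries of each stage, the ratio had a lowest, median and highest value of 0.541, 0.677 and 0.751 at BBCH63. The corresponding values were 0.721, 0.96 and 1.2 at BBCH77 and 0.864, 0.977 and 1.25 at BBCH90. The mean log2 ratio was higher at BBCH77 than at BBCH63 by 0.543, that is 1.457-fold (two-sided exact permutation test, p = 0.0004662, adjusted over 3 pairs of stages p = 0.0006993), with the ranges overlapping. Between BBCH90 and BBCH63 the difference was 0.622, or 1.539-fold, with no overlap of libraries (exact permutation p = 0.0001554, the smallest that 12870 assignments allow, adjusted p = 0.0004662). Between BBCH90 and BBCH77 it was 0.0793 (exact permutation p = 0.4936). VvFLC therefore fell by a larger factor than VvSOC1 from BBCH63 to BBCH77, and a difference between the factors was not detected from BBCH77 to BBCH90. By node, the mean log2 ratio went from -0.28 to -0.0063 at node 2, from 0.073 to -0.0039 at node 5 and from 0.10 to 0.12 at node 10 over this last interval, which was not tested node by node. This test takes the libraries of the 3 nodes of a stage as alike.

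**Figure D3:**
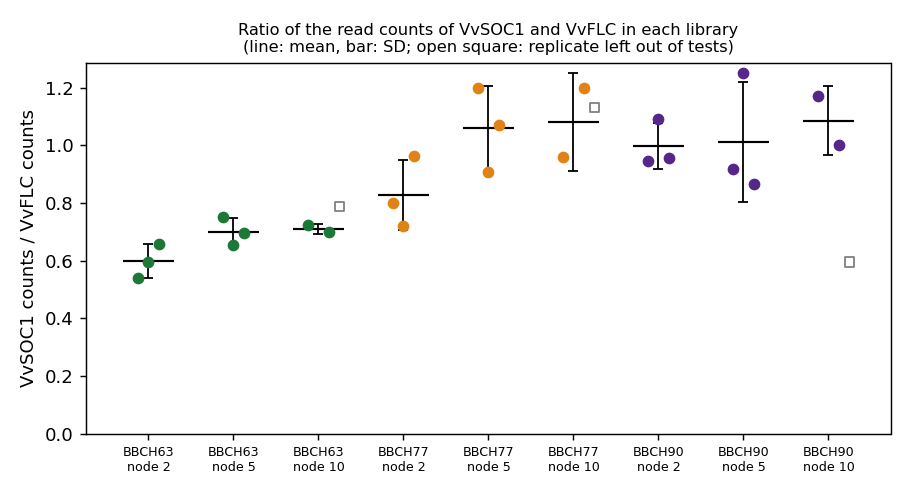
Ratio of the read counts of VvSOC1 to those of VvFLC in each library, by stage and node; lines are group means, bars SD, and open squares the libraries left out of the tests. All libraries of BBCH63 used in the tests lie at or below 0.751, and all those of BBCH90 at or above 0.864.

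The covariation of these genes was examined within each stage, since the stages form separate clusters. At BBCH63 the log2 CPM of VvFLC and VvSOC1 rose together over the 8 libraries, with a Pearson's r of 0.889 (exact permutation p = 0.005208, adjusted over 3 stages p = 0.01562) and a Spearman's rho of 0.833 (exact permutation p = 0.01538, adjusted p = 0.04613). Without the 2 libraries farthest from the median of VvFLC, replicates 2 and 3 of node 5, r was 0.827 (exact permutation p = 0.03472). At BBCH77 r was -0.417 and rho -0.214 (exact permutation p = 0.31 and 0.6191, adjusted p = 0.31 and 0.6646). At BBCH90 r was 0.417 and rho 0.191 (exact permutation p = 0.303 and 0.6646, adjusted p = 0.31 and 0.6646). Without the 2 farthest libraries r was 0.0798 at BBCH77 and -0.169 at BBCH90. A relation was thus detected at BBCH63, and it includes the difference between node 2 and the other nodes.

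To look within the groups, each library was taken as its deviation from the mean of its group, for which r is given as a description. At BBCH63 the deviations of the genes had the same sign in 8 of 8 libraries, with r = 0.875. In the 1 group of 2 libraries of each stage the deviations mirror each other by construction, so that the 8 are not independent. At this stage 1.79% of the other genes had a higher r with VvFLC than VvSOC1 did, and 1.23% had a higher r with VvSOC1 than VvFLC did. The reference gene VvUBC28 had r = 0.972 with VvFLC and 0.785 with VvSOC1 over the same libraries. The deviations of VvFLC and VvSOC1 had the same sign in 2 of 8 libraries at BBCH77, with r = -0.536, and in 3 of 8 at BBCH90, with r = 0.256. The largest deviation was that of replicate 1 of node 5 at BBCH63, which was low for both genes. Over all 24 libraries the deviations of VvFLC and VvSOC1 had r = 0.457. Of the other genes tested, 6.59% had a higher r with VvFLC than VvSOC1 did, and 12.9% had a higher r with VvSOC1 than VvFLC did. The deviations had r = 0.113 for VvFLC and -0.117 for VvSOC1 with the log2 total count of the library.

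**Figure D4:**
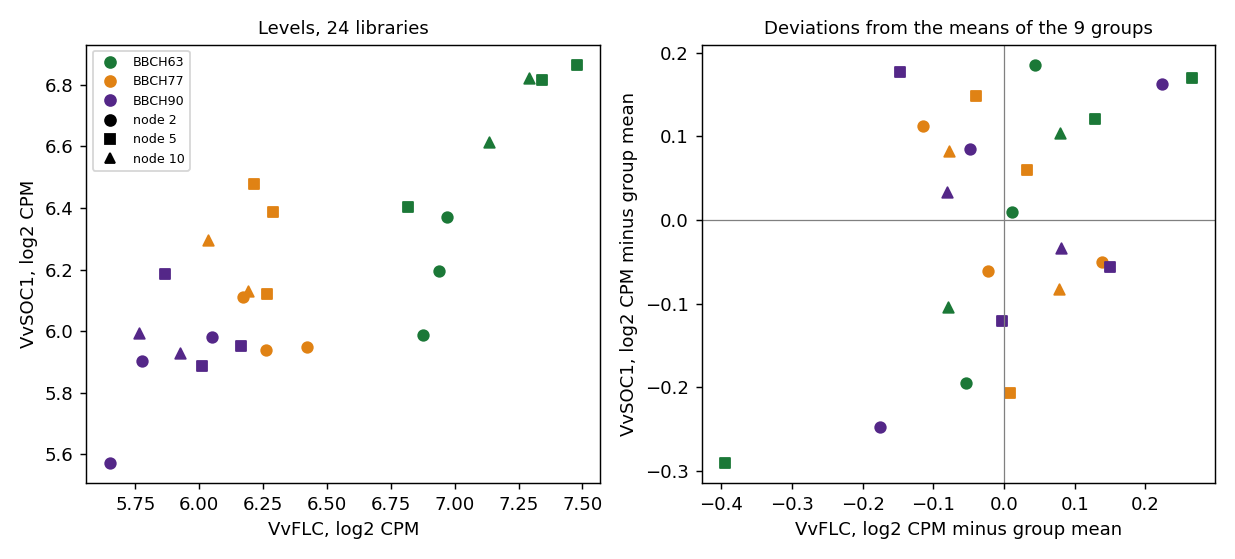
VvSOC1 against VvFLC in the 24 libraries, as log2 CPM (left) and as deviations of log2 CPM from the mean of each group (right), with stages in colour and nodes by symbol. The libraries of BBCH63 rise together in both panels, with an r of 0.889 for the levels and 0.875 for the deviations, and those of BBCH77 do not.

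The genes whose pattern was most like that of each gene were ranked by Pearson's r of log2 CPM over the 24 libraries, a measure that is set largely by what the libraries of a stage share. For VvFLC they were VITVI01G04448 (r = 0.98), VITVI02G01171 (r = 0.971), VITVI04G00581 (r = 0.963), VITVI13G01973 (r = 0.954) and VITVI08G01639 (r = 0.953). The first of them, VITVI01G04448, had 33.6 ± 7.81 CPM at BBCH63 node 5 and 10.6 ± 2.47 CPM at BBCH90 node 2 (SD, n = 3). For VvSOC1 they were VITVI14G00258 (r = 0.937), VITVI11G01369 (r = 0.931), VITVI17G00777 (r = 0.925), VITVI04G00272 (r = 0.916) and VITVI08G02313 (r = 0.912). VITVI14G00258 had 36.4 ± 2.91 CPM at node 2 of BBCH63 and 45.8 ± 1.29 at node 5 (SD, n = 3). It was lower at node 2 as VvSOC1 was, which its choice by r over the same libraries favours. No gene was in both lists. By the same measure VvSOC1 ranked 1087 of 22998 genes for likeness to VvFLC, and VvFLC ranked 528 for likeness to VvSOC1.

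The 5 other flowering genes that the study names were VvCO, VvELF4, VvCOL1, VvVFL and VvTFL1A, which the study took from earlier work and from the annotation of the genome. No DEG was found among them in any contrast of nodes. DEGs made up 4.82% (node 5) and 4.61% (node 10 vs node 2) of all genes at BBCH63 and 4.89% and 1.6% at BBCH77. They made up 0% in every other contrast of nodes in edgeR over the 24 libraries. For node 10 vs node 5 at BBCH63 this depended on the setting. There, DESeq2 gave 106 DEGs and a fit of only the 2 groups gave 31. The replicate block gave 3, and leaving out 1 library gave up to 14. From BBCH63 to BBCH77, 1 of 5 was a DEG that fell at node 5 and 0 of 5 were DEGs at nodes 2 and 10. DEGs that fell made up 3.25%, 2.87% and 3.28% of all genes at nodes 5, 2 and 10. DEGs of either direction made up 8.61%, 8.85% and 9.62%. From BBCH63 to BBCH90, 1 of 5 was a DEG that fell at node 2 and 2 of 5 at node 10. At node 5, 3 of 5 were DEGs that fell and 1 rose. DEGs that fell made up 21.6%, 20.8% and 20.2% of all genes at nodes 2, 5 and 10, and those that rose 12% at node 5. DEGs of either direction made up 34.3%, 32.8% and 32%. The median log2 fold change of the 5 in these last contrasts was -0.61, -1.12 and -0.41, against medians of -0.02, 0.03 and -0.00193 over all genes tested.

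VvELF4, named after a component of the evening complex of the Arabidopsis circadian clock, was of these 5 the closest in pattern to VvSOC1, at rank 211 (r = 0.843). It had 24.8 ± 3.30 CPM at node 2 and 38.9 ± 7.57 at node 5 of BBCH63 (SD, n = 3), a log2 fold change of 0.65 ± 0.183 (SE, edgeR adjusted p = 0.0306). At BBCH77 node 5 exceeded node 2 by 0.66 ± 0.183 on the log2 scale (SE, edgeR adjusted p = 0.0261), with overlap of libraries. For node 10 vs node 2, VvELF4 missed the threshold at BBCH63 (0.54, edgeR adjusted p = 0.0962) and at BBCH77 (0.63, edgeR adjusted p = 0.088). From BBCH63 to BBCH90 it fell by 1.56 at node 5 (edgeR adjusted p = 1.02e-06) and by 1.62 at node 10 (edgeR adjusted p = 1.17e-05) on the log2 scale. Unlike VvSOC1, it was a DEG in both of these contrasts.

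VvCO, a homologue of the photoperiod gene CONSTANS of Arabidopsis, shared with VvSOC1 the lower level at node 2 of BBCH63. It had 29.6 ± 5.42 CPM there against 56.0 ± 14.4 at node 5 (SD, n = 3) and 57.7 ± 3.02 at node 10 (SD, n = 2). The log2 fold changes were 0.92 ± 0.199 (SE, edgeR adjusted p = 0.00864) and 0.96 ± 0.218 (SE, edgeR adjusted p = 0.0121). VvCO fell by 1.02 on the log2 scale from BBCH63 to BBCH77 at node 5 (edgeR adjusted p = 0.00158). From BBCH77 to BBCH90, VvFLC and VvSOC1 had negative changes at every node. VvCO rose over this interval by 0.67 at node 2 (edgeR adjusted p = 0.0069) and by 0.56 at node 5 (edgeR adjusted p = 0.02) on the log2 scale. Its log2 fold change of 0.56 at node 10 missed the threshold (edgeR adjusted p = 0.0559).

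VvCOL1, a CONSTANS-like gene, had log2 fold changes of 0.01, -0.10 and -0.27 from BBCH63 to BBCH77 at nodes 2, 5 and 10 (edgeR adjusted p = 0.953, 0.621 and 0.256). It rose from BBCH63 to BBCH90 by 0.77 at node 2 (edgeR adjusted p = 6.58e-05), by 1.03 at node 5 (edgeR adjusted p = 2.86e-06) and by 0.50 at node 10 (edgeR adjusted p = 0.0146) on the log2 scale. Its highest group mean was 348 ± 55.4 CPM at BBCH90 node 5 (SD, n = 3).

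VvVFL, the grapevine homologue of LEAFY, and VvTFL1A, the homologue of TERMINAL FLOWER 1, mark the meristem. VvVFL was detected in every group, at means from 2.91 CPM at BBCH90 node 5 to 10.5 CPM at BBCH77 node 5. From BBCH63 to BBCH77 VvVFL had log2 fold changes of 0.45, 0.73 and 0.62 at nodes 2, 5 and 10. The edgeR adjusted p values were 0.132, 0.0167 and 0.0917. From BBCH63 to BBCH90 its log2 fold changes were -0.61, -1.125 and 0.007 at the same nodes. Here the edgeR adjusted p values were 0.0166, 0.000157 and 0.985. VvTFL1A had group means from 6.27 to 7.75 CPM at BBCH63 and from 3.27 to 4.92 CPM at BBCH77, and 2 to 10 counts per library at BBCH90, or 0.0948 to 0.201 CPM by group. It was a DEG that fell from BBCH63 to BBCH90 at all nodes, with log2 fold changes of -6.31 at node 2 (edgeR adjusted p = 8.34e-08), -5.24 at node 5 (edgeR adjusted p = 2.25e-07) and -5.74 at node 10 (edgeR adjusted p = 3.48e-06). The part of the meristem in the decline of VvFLC and VvSOC1 was not tested.

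VITVI13G01851, which the study annotates as UPSTREAM OF FLC, a name taken from a neighbour of FLC in Arabidopsis, was listed by the study for its expression in these samples. Since it was chosen from these same data, its changes and its likeness to VvFLC below are a description and not an independent result. Its mean was 18.4 ± 5.09 CPM at BBCH63 node 5, 5.12 ± 1.43 at BBCH77 node 5 and 0.404 ± 0.0334 at BBCH90 node 5 (SD, n = 3). Its log2 fold changes from BBCH63 to BBCH90 were -3.68, -5.50 and -6.13 at nodes 2, 5 and 10 (edgeR adjusted p = 7.28e-09, 2.09e-10 and 3.28e-09). It ranked 524 of 22998 genes for likeness to VvFLC (r = 0.848), and it declined much further than VvFLC did.

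**Figure D5:**
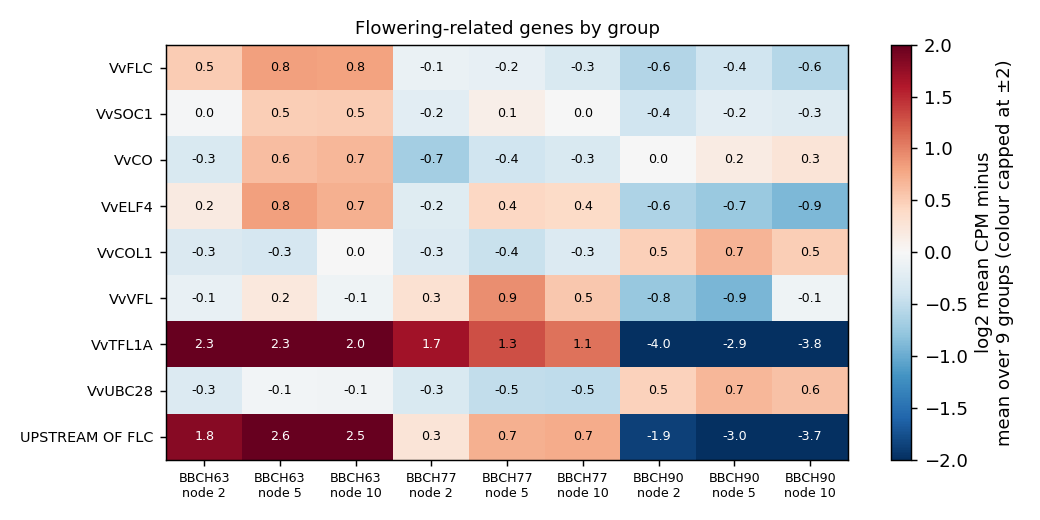
Log2 of the mean CPM of each of the 9 groups minus the average of these values over groups, for VvFLC, VvSOC1, the other flowering genes named by the study, the reference gene VvUBC28 and the gene annotated as UPSTREAM OF FLC; colours are capped and the numbers in the cells are not. VvFLC runs from 0.8 at BBCH63 nodes 5 and 10 to -0.6 at BBCH90 nodes 2 and 10, and VvSOC1 from 0.5 to -0.4.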

How the data were processed

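RNA was sequenced from pooled buds in 27 libraries, and the authors deposited raw counts of reads per gene, without normalization. The submitters' processing notes name FastQC, HISAT2 and HTSeq without versions, and the genome was PN40024.v4. The strand setting is not given in the sources used here, and the extraction kit differs between the labels and the study's methods. Groups were taken from the labels. The members and the gene lists were chosen with earlier results of these data known.

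Counts of 22999 genes kept by filterByExpr (minimum count 10) were tested in edgeR 4.0.16 (R 4.3.3) over 24 libraries, with TMM scaling, 1 mean for each of 9 groups and the quasi-likelihood test. The Benjamini-Hochberg adjustment covered every gene tested. DEGs had to pass an adjusted p of 0.05 and a 2-fold change. The SE was derived from the log2 fold change and the F value of the test. CPM of the libraries left out were scaled over all 27 libraries. Log2 ratios took 0.5 added to each count, while ratios not on the log2 scale were of raw counts. Correlations took log2 CPM with a prior count of 2. Exact permutation tests were run in Python 3.11.15 with scipy 1.17.1. The tests were checked on simulated data. For edgeR the planted changes were larger than any change of VvFLC or VvSOC1 here, so that its power for changes of their size was not checked.

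The genes named were both members, the 5 other flowering genes that the study's results name by identifier, the qPCR reference gene VvUBC28, the gene annotated as UPSTREAM OF FLC, and for each member the 5 genes tested with the highest r. Lists of MADS-box genes, of the FLOWERING LOCUS T family and of markers of green and dividing cells were planned but not used here, because the annotation used gave no gene products.

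Same-numbered libraries deviated together, with a correlation over 0.1 in each of 3 pairs, in 1 of 18 comparisons, node 2 at BBCH90 vs BBCH63. Comparisons with node 10 had only 2 such pairs each and could not meet this rule. In node 10 vs node 2 at BBCH77 both pairs were over 0.1, at 0.118 and 0.136. With the replicate number as a block, the log2 fold change at node 2 for BBCH90 vs BBCH63 was -1.10 for VvFLC (edgeR adjusted p = 2.485e-06) and -0.36 for VvSOC1 (edgeR adjusted p = 0.02206). The alternatives were DESeq2 1.42.0, its size factors in edgeR, no filter on low counts, all 27 libraries, 26 libraries without the identical column, the replicate block, a limit of 0.01, only the 2 groups of a contrast fitted, other pseudocounts and scales, and each of the 24 libraries left out in turn.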

Additional observations from a re-analysis of the deposited data

Results flagged for a closer look

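The libraries that the study left out, replicate 3 of node 10 at each stage, were not used in the comparisons, and their levels of both genes stood as follows. At BBCH63 node 10 the left-out library had 86.4 CPM of VvFLC and 68.1 CPM of VvSOC1, below every library of BBCH63 used in the tests for VvFLC and below all libraries of nodes 5 and 10 of that stage for VvSOC1. At BBCH77 node 10 the left-out library had 61.1 CPM of VvFLC, below the 8 libraries of its stage, and 69.2 CPM of VvSOC1, within their range. The library labelled BBCH90 node 10 replicate 3 had 123 CPM of VvFLC (122.6 before rounding) and 73.1 CPM of VvSOC1, which are the values of BBCH63 node 2 replicate 2, whose counts it repeats. Since no group of 1 node and stage has 4 samples, Dixon's test for a single outlying library was run over the 8 libraries of each stage, for the level of each gene and for the log2 ratio, and it marked none of these 9 sets. Run across nodes, the test cannot mark a library that is unusual only within its own group. BBCH63 node 5 replicate 1 was not marked, at -0.395 (VvFLC) and -0.291 (VvSOC1) from its group means on the log2 scale.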

How the results depend on the processing

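The falls of VvFLC from BBCH63 to BBCH77 and to BBCH90 kept their direction and an adjusted p under 0.05 with DESeq2, its size factors, no filter, the replicate block, a limit of 0.01 and any 1 of the 24 libraries left out, and so did those of VvSOC1 to BBCH90 at nodes 5 and 10. For VvFLC at node 5, BBCH77 vs BBCH63 passed the 2-fold limit with the size factors and with DESeq2 (-1.01 in both). The size factors brought VvSOC1 at node 5 past the threshold in both steps, at -0.40 for BBCH77 vs BBCH63 and -0.37 for BBCH90 vs BBCH77, as did DESeq2 at -0.40 and -0.37, and both turned its node 10 vs node 5 at BBCH63, to -0.003623 and -0.00357. At a limit of 0.01 the VvSOC1 calls at BBCH63 (0.52 and 0.53), at node 2 for BBCH90 vs BBCH63 (-0.36) and at node 10 for BBCH77 vs BBCH63 (-0.51) were lost, the last of them also without the filter (-0.50).

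With all 27 libraries, VvSOC1 lost its calls at BBCH63 (0.52 for node 5 and 0.35 for node 10 vs node 2), at node 2 (-0.36 for BBCH90 vs BBCH63) and at node 10 (-0.36 for BBCH77 and -0.50 for BBCH90 vs BBCH63). VvFLC lost those at node 2 (-0.64 for BBCH77 vs BBCH63 and -0.46 for BBCH90 vs BBCH77) and at node 10 (-0.94 for BBCH77 and -0.69 for BBCH90 vs BBCH63). Reversed were VvSOC1 in node 10 vs node 5 at BBCH63 (-0.17) and BBCH90 (0.028), VvFLC in node 10 vs node 5 at BBCH90 (0.29), in BBCH90 vs BBCH77 at node 10 (0.25) and in the interaction of node 10 at BBCH90 (0.41), and the log2 ratio for BBCH90 minus BBCH77 (-0.0323). This set holds the identical column under BBCH90. With 26 libraries, VvSOC1 lost the calls at BBCH63 (0.52 and 0.35), at node 2 for BBCH90 vs BBCH63 (-0.36) and at node 10 for BBCH77 vs BBCH63 (-0.36), VvFLC at node 10 for BBCH77 vs BBCH63 (-0.94, edgeR adjusted p = 0.0137) was no longer 2-fold, and VvSOC1 in node 10 vs node 5 at BBCH63 turned (-0.17). With only the 2 groups fitted, VvSOC1 lost the calls at BBCH63 (0.52 and 0.53), VvFLC in node 10 vs node 2 at BBCH90 turned (-0.029), and BBCH90 vs BBCH77 at node 5 passed for VvFLC (-0.28) and VvSOC1 (-0.36). The replicate block turned VvFLC in node 10 vs node 5 at BBCH63 (0.023) and brought VvSOC1 in BBCH90 vs BBCH77 at node 5 past the threshold (-0.33, edgeR adjusted p = 0.03806), and changed no other call of these genes. It was not run for the ratio.

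Leaving out each library in turn gave log2 fold changes of VvSOC1 at BBCH63 from 0.43 to 0.64 (node 5 vs node 2), 0.42 to 0.63 (node 10 vs node 2) and -0.11 to 0.11 (node 10 vs node 5). They ran from -0.11 to 0.041 for node 10 vs node 5 at BBCH90, from -0.61 to -0.40 (node 10) and -0.50 to -0.27 (node 5) for BBCH77 vs BBCH63, from -0.45 to -0.25 for BBCH90 vs BBCH63 at node 2, and from -0.42 to -0.25 for BBCH90 vs BBCH77 at node 5. For VvFLC they ran at BBCH63 from 0.17 to 0.47 (node 5 vs node 2) and -0.19 to 0.11 (node 10 vs node 5), from -0.087 to 0.038 for node 5 vs node 2 at BBCH77, from -0.073 to 0.13 for node 10 vs node 2 at BBCH90, from -1.15 to -0.84 for BBCH77 vs BBCH63 at node 5, and from -0.29 to 0.015 for the interaction of node 5 at BBCH90. The r at BBCH90 ran from -0.194 to 0.596. The numbers of DEGs behind the percentages moved further. For node 5 and node 10 vs node 2 they were 1109 and 1060 at BBCH63 (88 and 4 with 27 libraries, 371 and 128 with 26, 396 and 340 at the limit of 0.01, and 1639 with the block for node 10) and 1124 and 367 at BBCH77 (0 and 0 with 27 libraries or 2 groups fitted, 438 and 954 with 26, 381 and 1 at 0.01, and for node 10 944 with the block and 853 in DESeq2). For BBCH77 vs BBCH63 they were 2036, 1981 and 2212 at nodes 2, 5 and 10 (474, 590 and 1 with 27 libraries, 964, 946 and 602 with 26, 1257, 1277 and 1133 at 0.01, and 967 at node 2 with 2 groups fitted). At node 10, 7350 DEGs in BBCH90 vs BBCH63 became 691 with 27 libraries, and 7799 in BBCH90 vs BBCH77 became 0 with 27 and 4226 with 26. The interactions of nodes 5 and 10 had 3 and 4 DEGs at BBCH77 and 120 and 50 at BBCH90 (149, 263, 522 and 391 in DESeq2, and 0 in each with 27 libraries). With 1 library left out, the DEGs of node 5 and node 10 vs node 2 ran from 455 to 1423 and 107 to 1435 at BBCH63 and from 194 to 2788 and 0 to 2409 at BBCH77, and those of BBCH77 vs BBCH63 from 1530 to 2495, 1431 to 2246 and 931 to 2524 at nodes 2, 5 and 10. The interactions of nodes 5 and 10 ran from 1 to 498 and 0 to 778 at BBCH77 and from 29 to 580 and 1 to 474 at BBCH90. The causes were not tested.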

Other observations

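VvUBC28, which encodes a ubiquitin-conjugating enzyme and is the gene against which the study normalized its qPCR, did not hold one level in these buds along the season. Its node differences at BBCH63, the stage of that qPCR, were 0.22 for node 5 vs node 2, 0.21 for node 10 vs node 2 and -0.01 for node 10 vs node 5 on the log2 scale, and none passed the threshold (edgeR adjusted p = 0.336, 0.439 and 0.991). From BBCH77 to BBCH90 it rose by 0.77 ± 0.145 (SE) at node 2 (edgeR adjusted p = 0.000156), by 1.17 ± 0.146 at node 5 (edgeR adjusted p = 1.8e-06) and by 1.10 ± 0.178 at node 10 (edgeR adjusted p = 4.27e-05) on the log2 scale. Its group means ran from 112.5 CPM at BBCH77 node 10 to 255 CPM at BBCH90 node 5. The stage took 85.6% of the variance of its log2 CPM over the 24 libraries. Within the groups, the deviations of VvFLC had r = 0.726 with those of VvUBC28 over the 24 libraries, more than the r = 0.457 with those of VvSOC1, where the median over all genes was 0.00609.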
